A study of Mus musculus with 2 samples.

Results

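The Myc network was described in Dicer_KO mESCs through 10 genes, taken by symbol from the 43629 genes of the deposited count tables. They were the Myc paralogs Myc, Mycn and Mycl, their common partner Max, and the partners and antagonists Mxd1, Mxd3, Mxd4, Mxi1, Mnt and Mga. PolyA-selected RNA was sequenced in 2 libraries of Dicer_KO mouse embryonic stem cells on the 129/Ola background. Replicate 1 was taken at passage 7, and replicate 2 at the earlier passage 4. The study made its Dicer_KO lines in E14TG2a mESCs, a line from the mouse blastocyst, by deleting a stretch of Dicer1 with paired Cas9 guides and expanding single sorted cells. It describes independent deletions, and the labels do not say which deletion each library carries. No control library was analysed here, so both libraries carry the knockout, and the comparison is between them alone. Clone, deletion, passage and library preparation cannot be told apart in it. With 1 library on each side no p-value was computed.

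The proteins of this network are basic helix-loop-helix leucine zipper factors. Each Myc protein pairs with Max to bind E-boxes, short DNA motifs of which CACGTG is the best known, and raises transcription of genes for ribosome building, metabolism and cell division. Mxd proteins, Mxi1 and Mnt pair with Max on the same motifs and recruit Sin3 and histone deacetylases, which lower transcription. Mga also pairs with Max, and in embryonic stem cells it is the scaffold of PRC1.6, a Polycomb complex that represses germline genes. In mESCs Myc is a target of LIF and Wnt signalling, and Myc and Mycn can replace each other in self-renewal. Dicer cuts miRNA precursors, and several miRNA families of mESCs are known to act with the network.

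The promoters of the network were searched for the E-box itself, CACGTG, which reads alike on both strands. RefSeq windows on GRCm38.p6, from 250 bases before to 50 bases after each gene start, were matched for 9 of the 10 members, Myc being the exception. The motif stood in 3 of these 9 (33.3%), namely Max, Mxd4 and Mnt, against 2187 of the 27025 genes with a window (8.09%). These 27025 were not limited to genes expressed here. These 3 windows are printed because they are the members whose own promoter holds the letters bound by dimers with Max. Each is written 5′ to 3′ on the strand of the gene, with the E-box in capitals. The Max window lies on the minus strand at chr12:76962199-76962498, that of Mxd4 on the minus strand at chr5:34187661-34187960 and that of Mnt on the plus strand at chr11:74830674-74830973.
Max: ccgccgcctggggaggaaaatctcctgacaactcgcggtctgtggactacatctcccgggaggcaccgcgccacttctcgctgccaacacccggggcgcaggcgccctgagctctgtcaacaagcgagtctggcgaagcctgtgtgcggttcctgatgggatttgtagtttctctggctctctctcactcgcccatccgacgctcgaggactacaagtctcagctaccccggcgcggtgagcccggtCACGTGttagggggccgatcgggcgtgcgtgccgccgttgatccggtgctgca
Mxd4: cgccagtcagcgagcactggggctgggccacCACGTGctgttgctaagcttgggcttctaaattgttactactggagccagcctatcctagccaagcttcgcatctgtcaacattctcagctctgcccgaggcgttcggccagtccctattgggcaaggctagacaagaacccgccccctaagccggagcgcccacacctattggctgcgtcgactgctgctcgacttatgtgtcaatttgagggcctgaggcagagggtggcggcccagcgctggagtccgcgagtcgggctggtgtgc
Mnt: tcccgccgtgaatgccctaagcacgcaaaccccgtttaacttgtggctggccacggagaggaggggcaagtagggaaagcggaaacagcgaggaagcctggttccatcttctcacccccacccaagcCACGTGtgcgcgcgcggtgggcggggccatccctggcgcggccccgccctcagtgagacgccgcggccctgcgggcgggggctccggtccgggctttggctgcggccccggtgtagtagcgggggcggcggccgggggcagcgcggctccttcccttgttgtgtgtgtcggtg
The motif began 3 bases before the RefSeq start of Max, 219 before that of Mxd4 and 123 before that of Mnt. The gene spans given below come from another annotation (GENCODE), whose starts for these genes differ from those of RefSeq. Mycn, Mycl, Mxd1, Mxd3 and Mga had 1 window each and Mxi1 had 3, and none of these held the letters. A match describes the sequence and is not a measurement of binding.

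The libraries held 41710122 counts on genes in replicate 1 and 41566184 in replicate 2, with at least 10 counts for 17819 and 17461 genes. A share of 3 counts, taken as the limit of detection, was 0.0719 and 0.0722 counts per M counts on genes (CPM). Counts of replicate 2 were scaled to replicate 1 by TMM, which trims the most different genes before it sets the factor. A log2 ratio below is that of replicate 1 over replicate 2 after a pseudocount of 1, and its 95% interval is an exact one for the 2 counts that covers counting error only. Dicer1 had 1343 and 1510 counts, or 30.9 and 37.8 CPM after scaling. This does not check the label, as there is no control and a deletion need not remove the RNA. The study reports from its RNA sequencing that Dicer mRNA was lost in both mutants. It also reports no DICER protein by immunoblot and none of the mature miRNAs it probed by northern blot. Counts per gene do not show which exons the reads came from. All 10 mESC markers examined were detected, with 2562 to 199860 counts. Of the 6 fibroblast feeder markers Postn, Lum and Col3a1 had 0 or 1 count in each library, Col1a2 had 6 and 1, Col1a1 had 20 and 18, and Thy1 had 823 and 621, for a summed 19.6 and 16.1 CPM. The trophectoderm markers summed to 96.8 CPM in replicate 1 and 37.3 in replicate 2, most of it from Tfap2c at 86.1 and 32.8 CPM, and their part in the differences below was not tested.

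All 10 members passed the minimum mean of 10 scaled counts. Of the 17816 genes that did, 3826 (21.5%) differed by more than 2-fold between the libraries, 2533 (14.2%) being higher in replicate 1 and 1293 (7.26%) lower. Of the members, 1 of 10 differed by more than 2-fold, Myc, and it was lower in replicate 1. The other 9 lay within 2-fold. The median log2 ratio of the members was -0.01, and that of all genes tested was 0.02 with quartiles of -0.38 and 0.53. The ratio was below 0 for 5 members and above 0 for 5, against 8687 genes below 0 among all tested (48.8%). The counting interval left out 0 in 8 members and held it in 2, Max and Mxd3. For all genes tested 13035 (73.2%) had an interval without 0, so at this depth most genes differ by more than counting error.

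**Figure D1:**
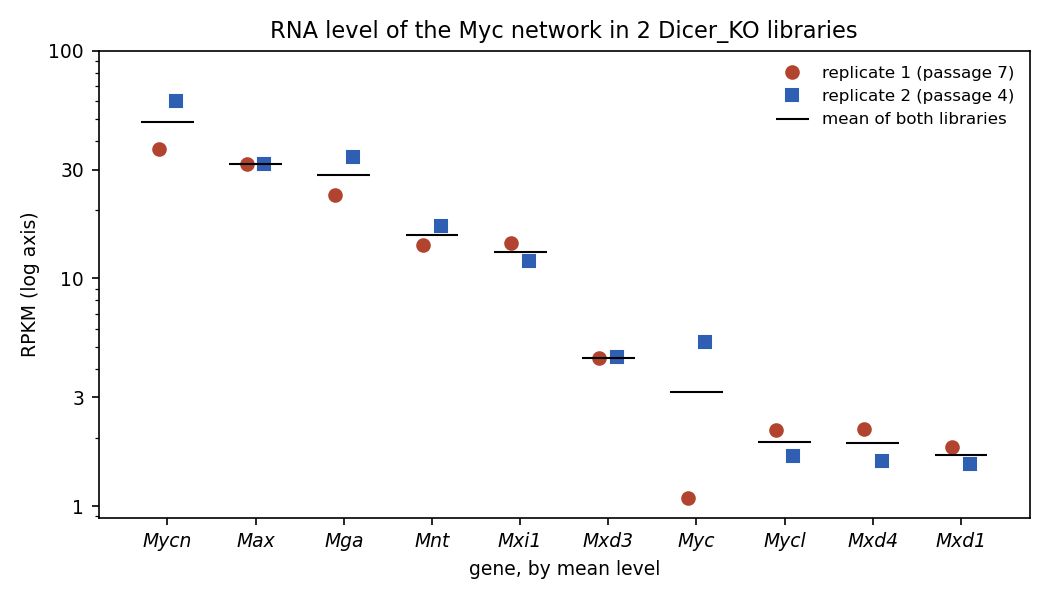
RNA level of the 10 members in RPKM (log axis), with replicate 1 as circles, replicate 2 as squares and the mean of both as a bar, ordered by the mean. With the length of all exons, Mycn stands highest in both libraries. Max is at the same height in both, and Myc shows the widest gap, from 1.08 to 5.25 RPKM.

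Mycn was the Myc paralog with by far the most RNA. Mycn (ENSMUSG00000037169, chr12:12936093-12941914, minus strand of GRCm38) had 5291 counts in replicate 1 and 7874 in replicate 2. Per kilobase of exon and M counts (RPKM), which allows levels of different genes to be compared, this was 37.0 and 59.9, a mean of 48.4 ± 16.2 (SD, n = 2). Among the genes tested these levels stood at percentiles 92.0 and 95.1. Mycn was 1.62-fold higher in replicate 2, a log2 ratio of -0.70 (interval -0.75 to -0.65), so both libraries ranked it among the more abundant RNAs although their levels did not coincide.

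Myc itself was a minor RNA in these cells, and the member that differed most between the libraries. Myc (ENSMUSG00000022346, chr15:61985391-61990374, plus strand) had 128 counts in replicate 1 and 569 in replicate 2. These were 1.08 and 5.25 RPKM, a mean of 3.17 ± 2.94 (SD, n = 2), at percentiles 27.3 and 54.8 of the genes tested. The log2 ratio was -2.27 (interval -2.56 to -2.0), which is 4.81-fold higher in replicate 2. Only 197 of the genes tested (1.11%) had a lower ratio. The mean over both libraries therefore stands for neither of them.

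Mycl, the paralog first found in lung cancer and dispensable for mouse development, went the other way. Mycl (ENSMUSG00000028654, chr4:122995652-123002485, plus strand) had 380 and 266 counts, or 2.17 and 1.65 RPKM, a mean of 1.91 ± 0.365 (SD, n = 2). It was 1.31-fold higher in replicate 1, with a log2 ratio of 0.39 (interval 0.16 to 0.62). In replicate 1 Mycl RNA stood above Myc RNA, and in replicate 2 below it.

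As a share of the summed RPKM of the Myc paralogs, Mycn made up 91.9% in replicate 1 and 89.7% in replicate 2. Myc made up 2.70% and 7.86%, and Mycl 5.39% and 2.47%. The order of Myc and Mycl thus turned between the libraries while Mycn held about the same share. Mycn exceeded Myc 34.1-fold in replicate 1 and 11.4-fold in replicate 2. These ratios and the sums given further on were chosen after the values were seen.

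Max, the obligate partner through which the Myc and Mxd proteins reach DNA, lay at nearly the same level in both libraries. Max (ENSMUSG00000059436, chr12:76937269-76962201, minus strand) had 4979 and 4554 counts. These were 31.9 and 31.7 RPKM, a mean of 31.8 ± 0.101 (SD, n = 2). The log2 ratio was 0.01 (interval -0.05 to 0.06). Scaling by total counts moved this ratio to 0.12, as it moved the median of all genes up by 0.12.

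The Mxd group, the antagonists of Myc that rise in differentiating cells, was low except for Mxi1. Mxi1 (ENSMUSG00000025025, chr19:53310518-53375810, plus strand) had 4219 and 3255 counts, or 14.2 and 12 RPKM, a mean of 13.1 ± 1.61 (SD, n = 2). It was 1.19-fold higher in replicate 1, with a log2 ratio of 0.25 (interval 0.19 to 0.32). Mxd3 (ENSMUSG00000021485, chr13:55325168-55329823, minus strand), the member of the group that is linked to dividing cells, had 458 and 427 counts. This gave 4.45 and 4.52 RPKM, a mean of 4.48 ± 0.0464 (SD, n = 2), and a log2 ratio of -0.02 (interval -0.21 to 0.17), whose sign turned under scaling by total counts.

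Mxd4 (ENSMUSG00000037235, chr5:34173883-34187720, minus strand) had 804 and 536 counts. At 2.18 and 1.58 RPKM, a mean of 1.88 ± 0.423 (SD, n = 2), it was 1.38-fold higher in replicate 1, the largest difference in that direction among the members (log2 ratio 0.46, interval 0.30 to 0.62). Mxd1 (ENSMUSG00000001156, chr6:86647042-86669161, minus strand) had 559 and 433 counts, or 1.82 and 1.53 RPKM. With the length of all exons its mean of 1.68 ± 0.202 RPKM (SD, n = 2) was the lowest of the network. Its log2 ratio was 0.25 (interval 0.06 to 0.43). Mxd1, Mxd4 and Mxi1 were thus each higher in replicate 1, by less than 1.5-fold.

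Exons of Mxd3 share 105 bases (4.43% of its exon length) with Prelid1 on the other strand. Those of Mxd4 share 514 bases (6.06%) with ENSMUSG00000106702 and those of Mxi1 share 194 bases (2.84%) with Gm10197, also on the other strand. Reads on overlapping regions were left out of the counts, and the strand setting of the counting is not given in the sources used here. No exon of the other 7 members overlaps another gene.

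Mnt and Mga, the large antagonists, were both lower in replicate 1. Mnt (ENSMUSG00000000282, chr11:74830920-74845725, plus strand), which is made in dividing and resting cells alike, had 2829 and 3149 counts. It reached 14.1 and 17.1 RPKM, a mean of 15.6 ± 2.11 (SD, n = 2), with a log2 ratio of -0.28 (interval -0.35 to -0.20), or 1.21-fold higher in replicate 2. Mga (ENSMUSG00000033943, chr2:119897228-119969581, plus strand) had the most counts of any member, 15417 and 20845, on the longest exon length. It reached 23.1 and 34.0 RPKM, a mean of 28.6 ± 7.72 (SD, n = 2), with a log2 ratio of -0.56 (interval -0.59 to -0.53), or 1.47-fold higher in replicate 2.

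**Figure D2:**
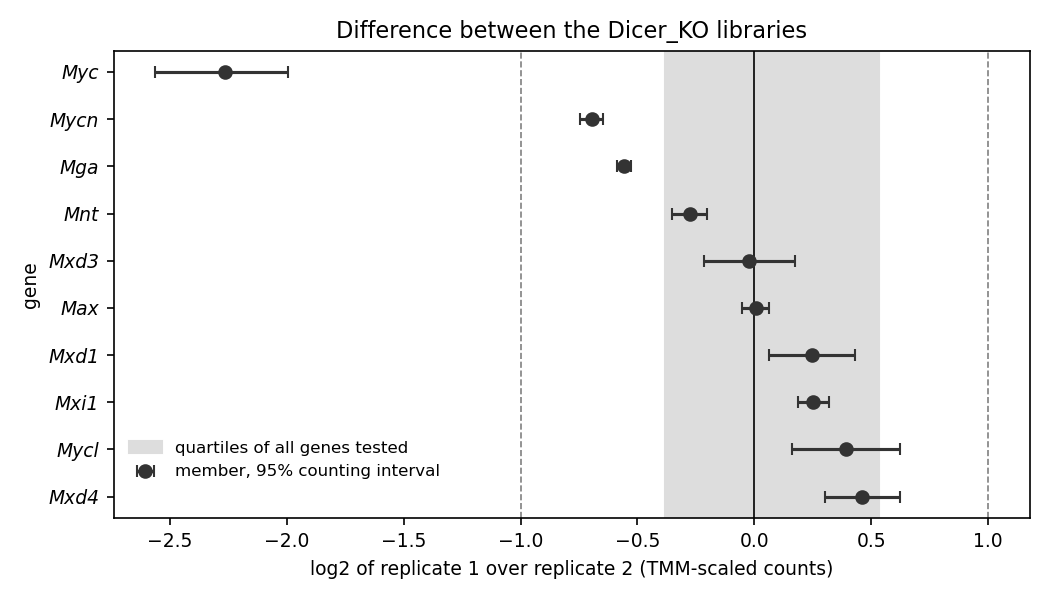
Log2 ratio of replicate 1 over replicate 2 for each member (TMM-scaled counts, horizontal axis), with its 95% counting interval as a bar, the quartiles of all 17816 genes tested in grey and 2-fold as dashed lines. Myc lies alone beyond 2-fold at -2.27, Mycn and Mga lie between the lower quartile and 2-fold, and the other 7 lie inside the quartiles.

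By mean RPKM the members ran in the order Mycn, Max, Mga, Mnt, Mxi1, Mxd3, Myc, Mycl, Mxd4, Mxd1. The libraries' ranges did not overlap between Mycn and Max, between Mga and Mnt, or between Mxi1 and Mxd3, so both libraries gave these genes the same order. Neighbours whose ranges overlapped were Max and Mga, Mnt and Mxi1, Mxd3 and Myc, Myc and Mycl, Mycl and Mxd4, and Mxd4 and Mxd1. Their order turned between the libraries, except for the last pair. Mxd4 stood above Mxd1 in both, at 2.18 against 1.82 RPKM in replicate 1 and 1.58 against 1.53 in replicate 2. RPKM rests on the length chosen. With the length of the longest transcript in place of all exons, Max came to a mean of 58.9 RPKM and Mycn to 59.7, so the step between them depends on the length. In replicate 1, at 115 CPM for Max and 122 for Mycn on longest transcripts of 1942 and 2674 bases, Max then stood above Mycn. In replicate 2, at 114 and 197 CPM, Mycn stood above Max. With that length Mxi1 came to a mean of 17.7 RPKM, Mxd3 to 6.10, Myc to 3.68, Mxd4 to 3.45, Mxd1 to 2.54 and Mycl to 2.20. Mycl and not Mxd1 was then the lowest.

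Summed over the Myc paralogs the level was 40.2 RPKM in replicate 1 and 66.8 in replicate 2, 1.66-fold higher in the latter. Summed over Mxd1, Mxd3, Mxd4 and Mxi1 it was 22.7 and 19.6 RPKM. The first sum over the second was 1.77 in replicate 1 and 3.41 in replicate 2. With Mnt and Mga added, the antagonists came to 59.9 and 70.7 RPKM. Max RNA stood at 0.792 of the Myc paralogs' sum in replicate 1 and at 0.475 in replicate 2. These sums and ratios rest on the length of all exons and were not computed with another length. With the longest transcript the mean of Max was 58.9 RPKM, against 59.7 for Mycn, 3.68 for Myc and 2.20 for Mycl. Whether Max lies below the paralogs' sum thus depends on the length. Sums of RNA do not measure dimers, since proteins were not analysed here. In bulk RNA, fewer cells that express a gene and less RNA per cell cannot be told apart.

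Myc lies on chromosome 15, whose genes stood apart from the rest in the direction opposite to Myc. The 684 genes of chromosome 15 that were tested had a median log2 ratio of 0.59 with quartiles of 0.18 and 1.15, whereas the other 18 autosomes had medians from -0.08 to 0.08. Against the chromosome 15 median, Myc was lower in replicate 1 by 2.86 on the log2 scale, or 7.25-fold. Of the 684 genes 11 (1.61%) were beyond 2-fold lower in replicate 1, against 7.48% of the genes on other chromosomes, and only Apol6, with 199 and 1056 counts and a log2 ratio of -2.52, was lower than Myc. The median ratio of the chromosome and the ratio of Myc thus have opposite signs in these libraries, and the cause of either was not tested.

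The neighbourhood of Myc did not share its ratio. Of 28 genes listed within 2 Mb of it, 4 passed the count minimum. Fam84b, which starts 1166 kb before Myc, had 3232 and 1316 counts and a log2 ratio of 1.17 (interval 1.08 to 1.27). The non-coding 9930014A18Rik beside it, 1163 kb before Myc, had 390 and 245 counts and a ratio of 0.55 (interval 0.31 to 0.78). Pvt1, the long non-coding RNA gene that starts 52.6 kb after the start of Myc and is known to share enhancers with it, had 554 and 483 counts and a ratio of 0.08 (interval -0.10 to 0.25). Fam49b, 1944 kb after it, had 5391 and 4719 counts and a ratio of 0.07 (interval 0.01 to 0.13). None of these 4 was lower in replicate 1, and Pvt1 was within counting error of equal. Chromosome 15 itself had a median of 0.59 and quartiles of 0.18 and 1.15. Against these, Pvt1 and Fam49b lay below the lower quartile, 9930014A18Rik inside the quartiles and Fam84b above the upper one.

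**Figure D3:**
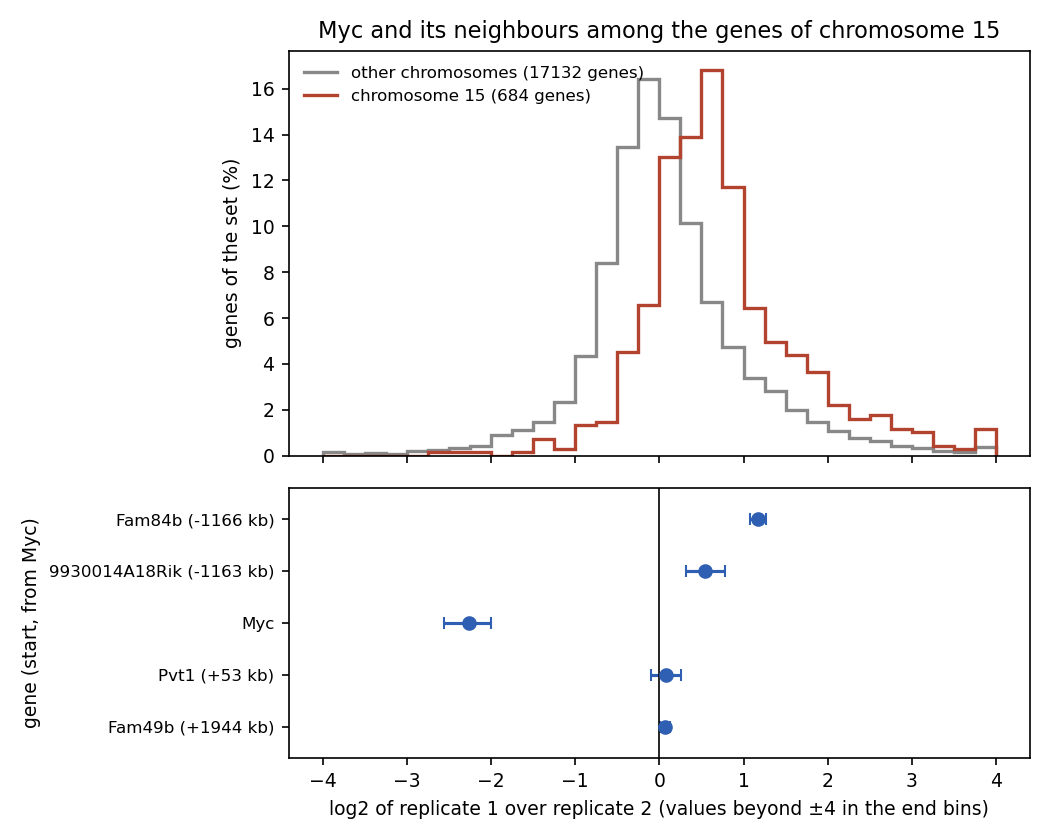
Upper plot, share of genes (%) in each bin of the log2 ratio of replicate 1 over replicate 2, for chromosome 15 in red and for the other chromosomes in grey. Lower plot, the ratio of Myc and of its 4 tested neighbours on the same axis with 95% counting intervals, where Myc at -2.27 lies in the left tail of chromosome 15 and the neighbours lie between 0.07 and 1.17.

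Genes known to act on Myc transcription, RNA or translation in mESCs were then read from a list of 22, all tested. Their median log2 ratio was -0.41. It was below 0 for 17 and above 0 for 5, against 48.8% below 0 among all genes tested. Beyond 2-fold were 2, both lower in replicate 1, a count near the 7.26% of all genes tested. Lef1, a transcription factor of the Wnt pathway, had 83 and 535 counts and a log2 ratio of -2.80 (interval -3.16 to -2.47), so that it differed even more than Myc. Lin28a, an RNA-binding protein that blocks let-7 maturation, had 603 and 1733 counts and a ratio of -1.64. The highest ratios were those of Smad3, a TGF-beta effector, at 0.81 from 2210 and 1160 counts, and of Klf4, a LIF-dependent pluripotency factor, at 0.43 from 3750 and 2562. Ctnnb1, which encodes beta-catenin and has the most counts of the list, was at -0.15 from 39738 and 40487.

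Reading these lists needs the trend over all genes beside it. The median ratio of all genes tested was lower for abundant RNAs. It was 0.08 for mean counts of 10 to 30, 0.24 for 30 to 100, -0.15 for 3000 to 10000 and -0.23 above 10000. Of the genes in that highest class 69.8% were below 0. Of 7527 genes whose mean was 1000 counts or more, 4420 were below 0 and the median was -0.09. Each list median is therefore also given relative to the median of genes in the same class of mean count, a comparison added after the data were seen. On that scale the list of Myc inputs was at -0.22. Of the members, Mycn was then at -0.55, Mga at -0.33, Mnt at -0.13, Max at 0.15 and Mxi1 at 0.40. Myc was at -2.42, Mycl at 0.24, Mxd1 at 0.09, Mxd3 at -0.18 and Mxd4 at 0.31, and no member changed sign.

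In the 5 lists of partners around the network no gene was beyond 2-fold, against 21.5% of all genes tested and 6.87% of those with a mean of 1000 counts or more, where most of these genes lie. Other helix-loop-helix dimers that bind E-boxes or pair with the network's relatives (10 genes) had a median of -0.26, or -0.18 relative to count class, with 7 below 0. Mlxipl, the carbohydrate-response factor that pairs with Mlx, was the highest at 0.75 (634 and 347 counts), followed by Usf2 at 0.34. The relatives Mitf and Tfe3 were the lowest at -0.67 (2105 and 3083 counts) and -0.66 (4217 and 6104 counts). Arnt, with the most counts, was at -0.04.

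The coactivators of Myc (19 genes) had a median of -0.13, or -0.03 relative to count class, with 13 below 0. Pim1, a kinase that works with Myc, was the highest at 0.91 (5583 and 2728 counts), then the acetyltransferase Ep300 at 0.45, a gene of chromosome 15. Its paralog Crebbp was the lowest at -0.60, next to Actl6a, an actin-like chromatin subunit, at -0.59. Hcfc1, the host cell factor that binds Myc, had the most counts and a ratio of -0.57.

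The corepressors of Mxd and Mnt (14 genes) had a median of -0.31, or -0.17 relative to count class, with 11 below 0. Suds3, a Sin3 subunit, was among the highest at 0.26. Brms1, also of the Sin3 complex, at -0.57 and Ncor1 at -0.50 were the lowest, and Ncor1 had the most counts. The PRC1.6 partners of Mga (13 genes) had a median of -0.32, or -0.17 relative to count class, with 11 below 0. Ring1, a ubiquitin ligase subunit, was at 0.53 and Yaf2, on chromosome 15, at 0.48. Cbx1, a heterochromatin protein, was at -0.65 from 9116 and 13178 counts, and Cbx3 at -0.54. Mga, at -0.56, thus lay near the low end of its own complex.

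Regulators of Myc protein stability (20 genes) had a median of -0.17, or -0.09 relative to count class, with 13 below 0. Set and Cip2a, inhibitors of the phosphatase PP2A, were the lowest at -0.96 (10913 and 19472 counts) and -0.82 (4471 and 7241 counts). The methyltransferase Setd7 was the highest at 0.83 (4479 and 2319 counts), then the ubiquitin ligase adaptor Trpc4ap at 0.20. Huwe1, a ubiquitin ligase of Myc with the most counts of the list, was at -0.64 from 29235 and 41870 counts.

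Genes listed as raised by Myc mostly had ratios below 0. Like the other lists, theirs were chosen with earlier results of these data known, so they are no independent check. Over the 3 lists of such targets, 108 genes were tested. Of these 96 were below 0 and 12 above, where 48.8% of all genes tested were below 0. Beyond 2-fold were 10 lower in replicate 1, near the 7.26% of all genes tested, and 0 higher, where all genes tested had 14.2%. Of genes with a mean of 1000 counts or more, 2.84% were beyond 2-fold lower and 4.03% higher. The median of the 108 targets was -0.58. The lists hold abundant RNAs, so the count class matters, and relative to it the medians below were smaller but kept their sign. Whether the Myc difference has a part in them was not tested.

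Ribosome biogenesis was the most uniform list. All 40 of its genes were tested and all 40 were below 0, with a median of -0.68, quartiles of -0.88 and -0.58, and a median relative to count class of -0.56. Beyond 2-fold were 5 genes, against 7.26% of all genes tested that were lower and 2.84% of those with a mean of 1000 counts or more. Utp20, of the processome that builds the small ribosomal subunit, had 5406 and 14674 counts and a ratio of -1.56, and Nolc1, a nucleolar phosphoprotein, had 7426 and 14714 counts and a ratio of -1.11. Polr1b, a subunit of RNA polymerase I, was at -1.09 (3958 and 7716 counts) and Pno1, an assembly factor of the small subunit, at -1.07 (2833 and 5461 counts), both named after their values were seen. Ncl, which encodes nucleolin and has the most counts of the list, was at -1.02 from 77108 and 143450. The highest were Bop1, a factor of the large subunit whose gene lies on chromosome 15, at -0.01 (4081 and 3783 counts) and Polr1c at -0.17 (2977 and 3076 counts).

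Metabolism and growth genes were more mixed. Of 47 tested, 36 were below 0 and 11 above, with a median of -0.47, quartiles of -0.64 and -0.05, and -0.31 relative to count class. The polyamine enzymes Srm, spermidine synthase, and Sms, spermine synthase, were the lowest, at -1.35 (2556 and 6007 counts) and -1.24 (830 and 1797 counts). Also beyond 2-fold were Nme1, a nucleoside diphosphate kinase, at -1.15 (1071 and 2179 counts) and Prps2, a phosphoribosyl pyrophosphate synthetase, at -1.03 (1262 and 2372 counts), named after their values were seen. The highest were the glutamine transporter Slc1a5 at 0.80 (5603 and 2958 counts) and the mitochondrial folate enzyme Mthfd2 at 0.52 (7083 and 4544 counts). Pkm, a pyruvate kinase, had the most counts and a ratio of -0.67 from 60888 and 88723.

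Of 21 cell cycle targets, 20 were below 0, with a median of -0.56, quartiles of -0.73 and -0.44, and -0.38 relative to count class. Ccnd2, which encodes cyclin D2, was beyond 2-fold, with 448 and 2119 counts and a ratio of -2.36 (interval -2.51 to -2.22), close to the ratio of Myc. Mcm5, a subunit of the replication helicase, was next at -0.91 (9442 and 16304 counts), and Mcm7, with the most counts, was at -0.45 from 15320 and 19294. The highest were Cks2 at 0.04 (1913 and 1705 counts) and the phosphatase Cdc25a at -0.20 (3686 and 3890 counts).

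Genes listed as lowered by Myc, also chosen with earlier results of these data known, ran the other way. All 21 were tested, 19 were above 0 and 2 below, with a median of 0.99, quartiles of 0.51 and 1.4, and 0.95 relative to count class. Beyond 2-fold were 10, all higher in replicate 1, against 14.2% of all genes tested in that direction. Txnip, which encodes the thioredoxin-interacting protein and restrains glucose uptake, had 82845 and 15545 counts and a ratio of 2.29, and the TGF-beta receptor Tgfbr2 had 595 and 120 counts and a ratio of 2.18. The other 8 of these 10 were named after their values were seen. The transcription factors Cebpa (142 and 31 counts), Nfil3 (302 and 95), Gata6 (16 and 5) and Ddit3 (648 and 241) had ratios of 2.04, 1.54, 1.4 and 1.30. The cell cycle inhibitor locus Cdkn2a had 847 and 283 counts and a ratio of 1.46. Its transcripts were counted together, and whether each of them is lowered by Myc was not checked here. Ndrg2, Gadd45g and Gadd45b had ratios of 1.22, 1.19 and 1.16.

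The ferritin chain Fth1, among the lowest of this list, was at -0.15. Cdkn1a, the p21 gene that Myc represses with Miz1, had 7961 and 4198 counts and a ratio of 0.80, within 2-fold, and was singled out after its values were seen. Genes of this list also mark differentiating or stressed cells. Gata6 is itself a primitive endoderm marker, and the markers of that lineage came to a summed 17.4 CPM in replicate 1 and 11.0 in replicate 2. Of these 5 of 6 were tested and 2, Gata6 and Dab2, were beyond 2-fold higher in replicate 1, against 14.2% of all genes tested. Both had few counts. The upper quartile of all genes was 1.05 for mean counts of 10 to 30 and 1.07 for 30 to 100. Of the trophectoderm markers 4 of 5 were tested and all 4 were beyond 2-fold higher in replicate 1, against the same 14.2%. Cdx2, the defining one, had 6 and 1 counts. The 10 mESC markers had a median of 0.21, or 0.44 relative to count class, with 7 above 0 and 3 below. Dppa5a alone was beyond 2-fold, at 1.11, where 4.03% of genes with a mean of 1000 counts or more were higher. Nanog was at 0.74, Pou5f1 at -0.26 and Zfp42, the lowest, at -0.32. The part of differentiating or stressed cells in the list's ratios was not tested.

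**Figure D4:**
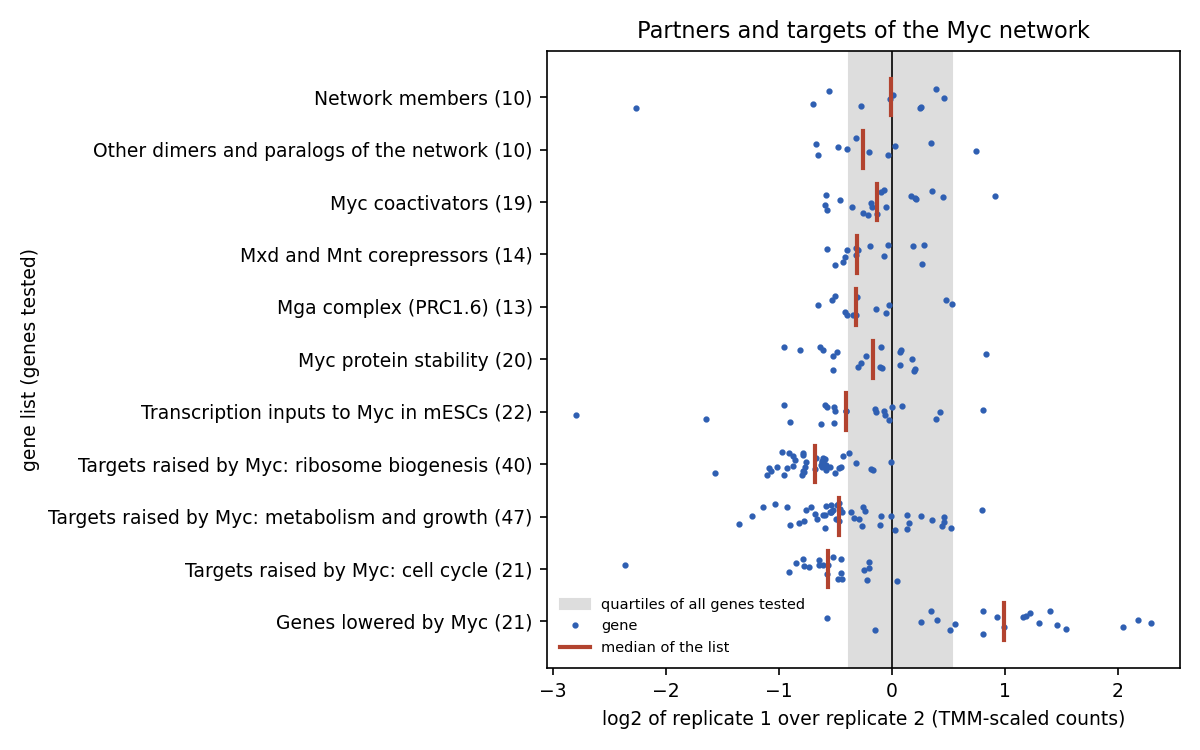
Log2 ratio of replicate 1 over replicate 2 (horizontal axis) for each tested gene of the network, its partners and its targets, a point per gene, with list medians in red and the quartiles of all 17816 genes tested in grey. The 3 lists of genes raised by Myc have medians of -0.68, -0.47 and -0.56, and the genes lowered by Myc have a median of 0.99.

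The promoters of these targets were read for the same E-box. It stood in 29 of the 94 genes raised by Myc that had a window (30.9%), by list in 11 of 34 for ribosome biogenesis (32.4%), 13 of 42 for metabolism and growth (31.0%) and 5 of 18 for the cell cycle (27.8%). Among genes lowered by Myc it stood in 3 of 16 (18.8%), and among all genes with a window, expressed here or not, in 8.09%. Lists that are not targets also lay above that share. It stood in 5 of 19 inputs to Myc (26.3%), 2 of 8 other dimers (25%) and 2 of 11 PRC1.6 partners (18.2%). For protein stability it was 2 of 17 (11.8%), for coactivators 2 of 18 (11.1%) and for corepressors 1 of 10 (10%). The 29 targets with the motif had a median ratio of -0.59 and 4 beyond 2-fold, all lower in replicate 1. The 65 without it had a median of -0.55 and also 4, all lower. Of all genes tested 7.26% were beyond 2-fold lower, and 2.84% of those with a mean of 1000 counts or more. Relative to count class the medians were -0.38 with the motif and -0.40 without it. The difference between these medians was not tested. The 4 with the motif are shown as the targets beyond 2-fold that hold the E-box, and no link between motif and ratio is drawn. Each stretch has up to 12 bases on either side of the E-box in capitals, 5′ to 3′ on the minus strand of the gene.
Utp20: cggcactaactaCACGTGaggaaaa
Pno1: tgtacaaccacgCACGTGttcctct
Sms: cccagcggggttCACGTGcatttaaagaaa
Nme1, first start: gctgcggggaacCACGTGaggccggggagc
Nme1, other start: agcttgatacgcCACGTGggctcgcctttg
They lie at chr10:88826765-88826789 for Utp20, chr11:17211540-17211564 for Pno1, chrX:157492466-157492495 for Sms, and chr11:93968273-93968302 and chr11:93968037-93968066 for the starts of Nme1, on GRCm38.p6. The motif began at base 38, counted from the start as base 1, in Utp20 and in Pno1, 196 bases before it in Sms, and 18 and 29 bases before the respective starts in Nme1.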

How the data were processed

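PolyA RNA of 2 Dicer_KO mESC libraries was examined, grouped by the genotype label. The authors trimmed paired reads with Trimmomatic, aligned them with STAR (2.4.2a) to mm10, allowing many multiple hits, and assigned them to Ensembl genes with featureCounts (1.4.5-p1), leaving out reads on overlapping regions; the treatment of multiple hits and the strand setting are not given in the sources used here. The deposited values are counts per gene without normalization, with 41710122 and 41566184 counts per library. From these, TMM factors of edgeR (4.0.16, R 4.3.3), log2 ratios (pseudocount 1) and exact binomial intervals (scipy 1.17.1, 95%) were computed. RPKM was computed on the exons of GENCODE M21 (GRCm38), where 1081 listed identifiers had no entry. Scaling, ratios and intervals were also run on simulated counts that held counting error only. That run checks the code and not how far the intervals cover the spread in these data. Genes with a mean of at least 10 scaled counts counted as tested, and those beyond 2-fold as different. No test between conditions was possible.

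Members and lists were chosen with earlier results of these data known. Named are all members, genes within 2 Mb of Myc and, per list, the 2 highest and 2 lowest ratios among genes whose mean was 100 counts or more, and the gene with the most counts. Alternatives were the size factors of DESeq2 (1.42.0), total and raw counts, a pseudocount of 0.1, other thresholds and minimums, another length, other centring, and leaving out each replicate. Proteins of the members were not compared here, and not every gene that the rule names is reported here.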

Additional observations from a re-analysis of the deposited data

How the results depend on the processing

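Over 36 results, 165 values were computed under alternatives that keep both libraries, of which 35 moved by more than the limit taken (the arm of the counting interval for ratios, SD for levels and shares, 0.1 for list medians relative to all genes, 1.5 times for counts). Leaving out a replicate gives the other library's level, as printed for each member, and says nothing of stability. The Myc ratio was -2.86 when centred on the median of its chromosome, and under the other scalings, centrings and pseudocount it ranged from -2.42 to -2.14. Members beyond 1.5-fold were 2 (Myc and Mycn). The share of all genes past the threshold was 39.7% at 1.5-fold, 5.73% at 4-fold and 14.2% with a minimum mean of 100 counts. Total or raw counts moved the median of all genes up by 0.12. They, and centring on its chromosome, turned the sign of Mxd3 and of no other member. Alternatives added after seeing the data were centring on the count class and leaving out chromosome 15. Centring on the count class gave -0.18 for other dimers, -0.0276 for coactivators, -0.17 for corepressors, -0.17 for PRC1.6, -0.0895 for protein stability, -0.22 for inputs to Myc, -0.56 for ribosome biogenesis, -0.31 for metabolism and -0.38 for the cell cycle. The cause of these shifts beyond the trend with abundance was not tested. No paired analysis was possible because there is 1 group of 2 libraries and nothing to pair it with. Myc rests on 128 and 569 counts, and 1 library per side allows no replicate check.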
